A study of Mus musculus with 4 samples.

Results

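The genes described here encode carriers of the solute carrier (SLC) superfamily that move sodium, protons, chloride, bicarbonate, phosphate, calcium and zinc across membranes. They were taken as every gene on the array whose listed name begins with Slc4a, Slc8a, Slc9a, Slc12a, Slc20a, Slc24a, Slc26a, Slc30a, Slc34a or Slc39a. The array carried 128 probes for 78 such names. A gene counted as measured where at least 2 of the 4 arrays read a probe of it well above background. This held for 61 probes and 48 genes, of 12437 genes measured in all. Of the 30 genes left out, 28 were not well above background on any array and 2 on 1 array only. They include all 6 genes listed under an Slc24a name, and Slc26a9, Slc9a8 and Slc39a10 of the carriers known from the gut. Slc24a proteins are potassium-dependent sodium-calcium exchangers, but RefSeq names the listed Slc24a6 as Slc8b1, outside that family. The prefix also takes in genes that are no carriers: Slc9a3r1 and Slc9a3r2 encode the scaffolds NHERF1 and NHERF2, and Slc4a1ap encodes kanadaptin.

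RNA came from enterocytes freshly isolated from the small bowel of mice, in 2 biological replicates per genotype on 1 array each. IKKb(EE)IEC mice carry IKKb(EE), a permanently active mutant of the kinase that switches on NF-kB, in their intestinal epithelial cells. The controls were wild-type (WT) littermates, and the labels name no treatment for either genotype. The promoter that drives the transgene, the age of the mice and the number of animals behind a sample are not stated in the sources. The p-values therefore rest on the spread between 2 samples per genotype, which limma draws toward that of all genes tested (prior degrees of freedom 3.51). Arrays of a genotype lay side by side on the slide, so position and genotype cannot be told apart.

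Sodium-proton exchangers of the Slc9a family and chloride-bicarbonate exchangers of the Slc26a and Slc4a families together bring sodium chloride into the enterocyte and set the pH at its surface. Cation-chloride cotransporters (Slc12a) load or unload chloride, and the Slc20a and Slc34a families take up phosphate with sodium. Zinc transporters come in opposed families: ZnT proteins (Slc30a) move zinc out of the cytosol into vesicles or out of the cell, and ZIP proteins (Slc39a) move it into the cytosol. Paneth cells, at the base of the crypts, keep zinc in their granules.

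In IKKb(EE)IEC, 4 of the 48 genes rose and 4 fell. The zinc transporter Slc30a2 rose 4.08-fold, and Slc12a8, Slc12a7 and the zinc importer Slc39a14 rose 2.05-, 1.91- and 1.81-fold. Of the phosphate carriers, a probe of Slc20a1 fell 7.23-fold and Slc34a3 at least 2.59-fold, while the anion carrier family member Slc26a5 and the sodium-proton exchanger Slc9a2 fell by 0.74 and 0.67 log2 units. The remaining 40 genes did not pass an adjusted p below 0.05 (limma, Benjamini-Hochberg over all genes tested). The 4 that rose make up 8.33% of the list, beside 8.02% of all genes tested, and the 4 that fell make up 8.33%, beside 7.2%, so neither share stands apart from the background. The median log2 fold change of the list was -0.13, against -0.12 for all genes. Both IKKb(EE)IEC arrays lay above both WT arrays for 15 members and below them for 18, which is 31.25% and 37.5% of the list, beside 28.3% and 40.8% of all genes.

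The counts moved with the array left out, in the list as over all genes. Such runs leave 1 array in a genotype. The median log2 fold change of the list was -0.03 without WT replicate 1 and -0.09 without WT replicate 2. It was -0.18 and -0.04 without IKKb(EE)IEC replicates 1 and 2. Over all genes the medians were -0.17, -0.07, -0.09 and -0.14 in the same order. A shift by the array median gave 5 higher and 2 lower members, beside 1260 and 735 of all 12437 genes.

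**Figure D1:**
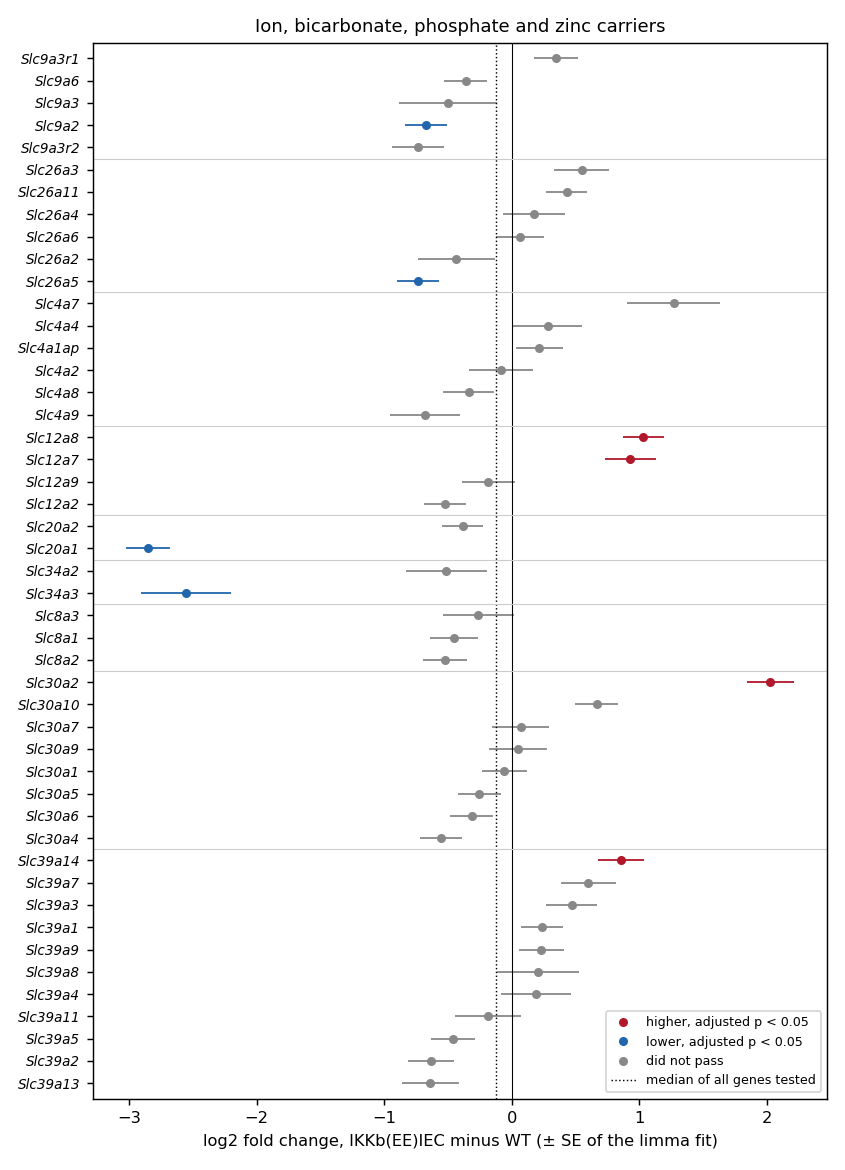
Log2 fold change (IKKb(EE)IEC minus WT, x axis) of 47 of the 48 measured genes, grouped by family with grey lines between families. Points are the fitted values and bars their standard errors from 2 arrays per genotype, red and blue points mark the 4 genes that rose and the 4 that fell, and the dotted line marks the median of all genes, -0.12.

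The check of the sample against markers is given here because it touches several results below. Levels are normalized log2 signals, that is, log2 of the processed signal minus the 75th percentile of the array, so 0 is that percentile. All 12 epithelial markers were measured, and Vil1, which encodes villin of the brush border, lay between 7.99 and 8.14 on the 4 arrays. Of the 12, Anpep, an aminopeptidase gene, rose by 1.10, Fabp2, a fatty acid-binding protein gene, fell by 1.56, Lct, the lactase gene, fell by 1.26, and the other 9 did not pass. Of 7 measured Paneth cell markers 6 fell, with a median log2 fold change of -2.77. Their summed level went from 13.79 and 14.03 to 10.90 and 11.45. Of 8 macrophage markers 5 rose, and the summed level of the 8 went from 2.81 and 3.11 to 4.75 and 4.37. Among those that rose, Adgre1, C1qa, C1qc and Fcgr1 were dim in WT and entered through the IKKb(EE)IEC arrays only. Their rises are therefore bounds, of at least 3.88-, 1.67-, 17.4- and 9.89-fold. C1qb, the brightest of the 8 in WT, stood at 2.36 and 2.27 there and at 2.22 and 2.12 in IKKb(EE)IEC. It did not pass. None of the 7 T cell markers passed (limma). An unadjusted p below 0.05 in limma was reached by 3 of them and by 6 of the 12 epithelial markers. Over all 12437 genes tested 4744 reached it. The liver gene Mup1 stood at 0.96 and 4.32 in WT, and WT replicate 2 alone read Alb, Apoh, Ahsg and Fgb well above background. The bile acid-binding protein gene Fabp6 of the ileum stood at 1.04 and 3.99 on the WT arrays and at 0.50 and 1.72 on those of IKKb(EE)IEC. Of 7 measured markers of the proximal small intestine 2 rose (Onecut2, Adh1) and 3 fell (Fabp1, Lct, Cyp3a11), and of 10 distal ones 1 rose (Guca2a, also a partner gene below) and 2 fell (Slc51a, Mep1a). In bulk RNA, fewer cells of a type and less RNA per cell cannot be told apart, and the part of these markers in the results below was not tested.

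Phosphate carriers showed the largest falls of the list. Slc20a1 encodes PiT-1, a sodium-phosphate cotransporter found in most tissues. It is represented by 2 probes, and the brighter one (mm8 chr2:128890314-128890373) stood at 4.97 and 4.80 in WT and at 2.08 and 1.98 in IKKb(EE)IEC. Both IKKb(EE)IEC arrays lay far below both WT arrays, a log2 fold change of -2.85 ± 0.17 (SE, n = 2 against 2; adjusted p = 0.00189, limma) or 7.23-fold. The other probe (mm8 chr2:128902835-128902894), 12521 bases further along the chromosome, did the opposite. It stood at 1.04 and -1.36 in WT and at 2.25 and 1.86 in IKKb(EE)IEC, and was well above background on both IKKb(EE)IEC arrays and on WT replicate 1, not on WT replicate 2. Its log2 fold change of 2.21 ± 0.75 (SE) did not pass in a fit of all probes (adjusted p = 0.0964, limma), and its WT arrays lay further apart than those of the brighter probe. The fall is therefore a measurement of 1 region of the Slc20a1 transcript, and the level of the whole gene is not settled by these arrays.

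RefSeq lists 2 start sites for Slc20a1 on the plus strand, 8323 bases apart in GRCm38.p6, which is shown here because the 2 probes of the gene moved in opposite directions. The sequences are the 250 bases before each start, at chr2:129198523-129198772 and chr2:129206846-129207095 of that build. Capitals mark matches to the metal response element core, TGCACNC or TGCGCNC on either strand, the letters bound by the zinc-sensing factor MTF1.
Slc20a1 upstream start: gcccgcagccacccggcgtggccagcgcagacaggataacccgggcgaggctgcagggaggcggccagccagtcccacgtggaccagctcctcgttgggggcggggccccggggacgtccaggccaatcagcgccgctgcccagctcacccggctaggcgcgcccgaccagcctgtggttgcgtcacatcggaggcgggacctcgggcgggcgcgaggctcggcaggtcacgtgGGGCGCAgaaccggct
Slc20a1 downstream start: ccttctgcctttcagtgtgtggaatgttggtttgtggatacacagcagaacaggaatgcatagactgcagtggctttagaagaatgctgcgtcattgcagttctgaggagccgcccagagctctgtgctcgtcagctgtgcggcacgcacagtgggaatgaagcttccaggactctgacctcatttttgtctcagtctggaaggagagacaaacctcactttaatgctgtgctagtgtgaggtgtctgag
The upstream stretch holds 1 match and the downstream one none. The probe positions are in mm8 and the starts in GRCm38.p6, so which probe reads which start was not worked out here.

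Slc34a3 encodes NaPi-IIc, best known as a phosphate cotransporter of the kidney. It stood at -0.52 and -0.56 in WT and at -3.62 and -2.57 in IKKb(EE)IEC (mm8 chr2:25050927-25050986). The probe was well above background on both WT arrays and on neither IKKb(EE)IEC array, so its fold is a bound. Set against the lowest signal well above background on each IKKb(EE)IEC array, it was at least 2.59-fold lower (adjusted p = 0.0141, limma). In the authors' value table, which keeps the background in its signals, the difference was -0.46 and did not pass. It was also lost with normexp on local background, at -0.42, where no gene on the array passed in limma.

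The main intestinal phosphate cotransporter, NaPi-IIb, is encoded by Slc34a2. It stood at 0.06 and 0.96 in WT and at 0.07 and -0.06 in IKKb(EE)IEC, a log2 fold change of -0.51 ± 0.32 (adjusted p = 0.28, limma). WT replicate 2 alone stood apart, and the genotypes overlapped. Slc20a2, which encodes PiT-2, went from -0.26 and -0.27 to -0.64 and -0.66 without passing (adjusted p = 0.145, limma). Xpr1, the phosphate exporter, was at 1.93 and 1.13 in WT and at 1.88 and 1.89 in IKKb(EE)IEC, within the WT range.

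**Figure D2:**
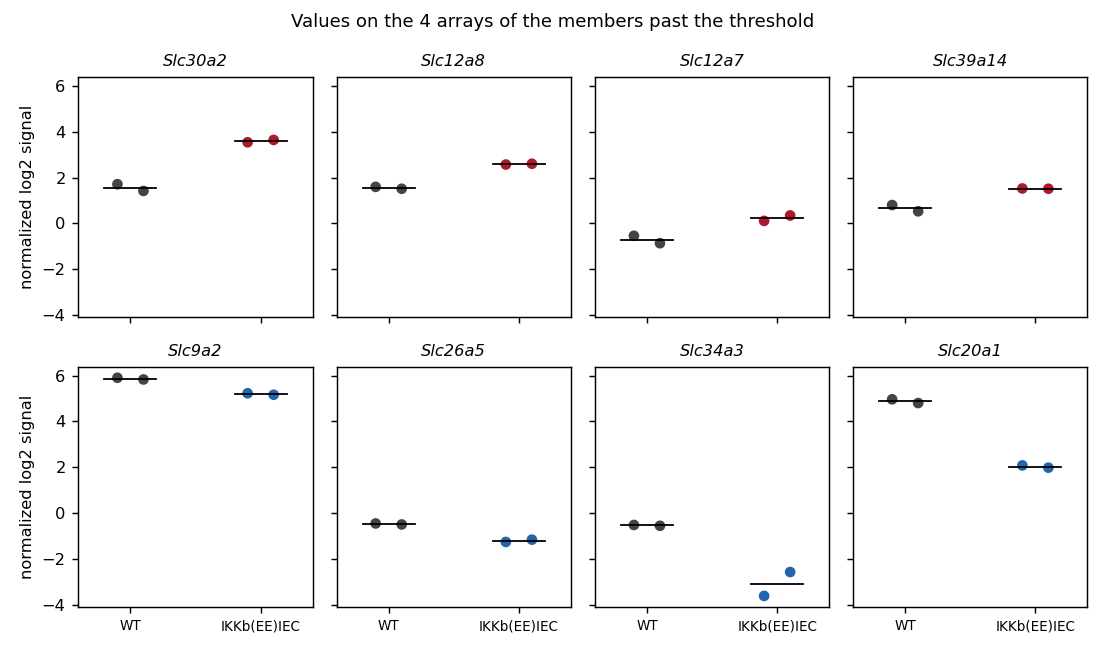
Normalized log2 signal (y axis) of the 8 genes past the threshold on each of the 2 WT and 2 IKKb(EE)IEC arrays, with a line at each mean. The genotypes separate for every gene shown, with differences from 2.03 log2 units up for Slc30a2 to 2.85 down for Slc20a1. These genes were chosen by the threshold on the same values, so their separation is no support of its own. Over all genes tested the arrays separate upward for 28.3% and downward for 40.8%. Levels of different genes are not comparable, since each is read by its own probe.

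Zinc exporters of the Slc30a family were measured for 8 of 10 genes, of which Slc30a2 alone passed. Slc30a2 encodes ZnT2, which loads zinc into vesicles and is known from the mammary gland, pancreas and Paneth cells. It stood at 1.71 and 1.42 in WT and at 3.54 and 3.64 in IKKb(EE)IEC (mm8 chr4:133626375-133626434). Both IKKb(EE)IEC arrays lay above both WT arrays by more than the gap within either genotype, and the log2 fold change was 2.03 ± 0.19 (SE, n = 2 against 2; adjusted p = 0.00448, limma), or 4.08-fold. In the same samples 6 of 7 Paneth cell markers fell, among them Lyz1 (log2 fold change -2.74) and Defa1 (-2.77). Of 10 pancreatic acinar genes on the array 4 were measured. Cela2a, Cela3b, Cpa1, Cpb1, Pnlip and Prss2 were well above background on no array of either genotype. Clps, a pancreatic colipase gene, fell by 4.01, and the other 3 measured pancreatic genes did not pass.

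The 250 bases before the RefSeq start of Slc30a2 (GRCm38.p6 chr4:134343216-134343465, plus strand) are shown as those of the zinc gene with the largest rise, with capitals as above.
Slc30a2: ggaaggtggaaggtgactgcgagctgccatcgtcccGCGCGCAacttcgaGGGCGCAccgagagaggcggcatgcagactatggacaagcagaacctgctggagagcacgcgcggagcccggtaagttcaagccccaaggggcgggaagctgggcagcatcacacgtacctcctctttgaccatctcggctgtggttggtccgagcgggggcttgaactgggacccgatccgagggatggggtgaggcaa
They hold 2 matches to the metal response element core. RefSeq windows of 300 bases, 250 before and 50 after a start, were at hand for 38 of the 48 members, in 48 windows. The core occurred in 21 of them, or 43.75%, beside 25.7% of all 32851 windows. A looser form with any base at the fourth position, which was searched first, occurred in 66.7% and 51.0%. The NF-kB consensus site kappaB was found in 1 member window, that of Slc39a1, or 2.08%, beside 4.51% of all windows. Base composition was not matched, the core is short, and a match is a run of letters rather than a bound site.

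Slc30a10, whose protein exports manganese and zinc, stood at -1.13 and -1.16 in WT and at -0.55 and -0.41 in IKKb(EE)IEC. This probe was not well above background in WT, so the difference is a fold of at least 1.59, which just missed the threshold (adjusted p = 0.0529, limma). A second probe, well above background on 1 WT array and both IKKb(EE)IEC arrays, gave a log2 fold change of 0.66 (adjusted p = 0.121, limma fit of all probes). Slc30a4 went the other way, from 0.96 and 1.00 to 0.35 and 0.50 (adjusted p = 0.0773, limma). Slc30a1, the zinc exporter of the basolateral membrane, stood at -0.08 and -0.04 in WT and at 0.01 and -0.24 in IKKb(EE)IEC. Slc30a5 and Slc30a7, which supply zinc to the secretory pathway, had log2 fold changes of -0.26 ± 0.17 and 0.07 ± 0.22, neither past the threshold.

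Zinc importers of the Slc39a family were measured for 11 of 14 genes, of which Slc39a14 alone passed. Slc39a14 encodes ZIP14, a carrier of zinc, iron and manganese known to be induced in inflammation. It stood at 0.80 and 0.53 in WT and at 1.52 and 1.51 in IKKb(EE)IEC (mm8 chr14:69038678-69038737). The 2 IKKb(EE)IEC arrays were nearly equal and lay above both WT arrays. The log2 fold change was 0.85 ± 0.18 (adjusted p = 0.0386, limma), and a second probe, 2895 bases away, gave 0.79 and passed in the fit of all probes (adjusted p = 0.0469, limma).

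Slc39a4 encodes ZIP4, the carrier for dietary zinc whose loss causes acrodermatitis enteropathica. It stood at 6.34 and 5.60 in WT and at 6.17 and 6.15 in IKKb(EE)IEC, so both IKKb(EE)IEC arrays lay between the WT arrays. Slc39a5, the basolateral ZIP5, went from -0.26 and -0.17 to -0.77 and -0.58 without passing (adjusted p = 0.116, limma). Slc39a8, the ZIP8 gene, lay at -0.42 and 0.49 in WT, and both IKKb(EE)IEC arrays fell within that gap. Slc39a2 had a log2 fold change of -0.63 ± 0.18 (adjusted p = 0.0666, limma) and Slc39a13, the ZIP13 gene, of -0.64 ± 0.22 (adjusted p = 0.0995, limma).

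The genes of metallothioneins, the cytosolic zinc-binding proteins, are set beside these, though the arrays measured no zinc. Mt2 stood at 3.62 and 4.74 in WT and at 5.64 and 6.31 in IKKb(EE)IEC and rose by 1.80 ± 0.42 log2 units (adjusted p = 0.0474, limma). Its replicates differed within each genotype, yet the genotypes did not overlap. Mt1 was also above WT on both arrays, by 0.75 ± 0.32, without passing (adjusted p = 0.148, limma). Mt3 lay the other way, at 3.02 and 3.09 in WT and at 2.53 and 2.40 in IKKb(EE)IEC, a log2 fold change of -0.59 ± 0.17 with no overlap that did not pass either (adjusted p = 0.0671, limma). Mtf1, the gene of the zinc-sensing factor, differed by -0.11 ± 0.23.

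Of 9 genes with an Slc12a name, 4 were measured. The name alone does not show what the protein of a gene such as Slc12a8 carries. Slc12a8 stood at 1.59 and 1.51 in WT and at 2.57 and 2.60 in IKKb(EE)IEC (mm8 chr16:33582959-33583018), with a log2 fold change of 1.03 ± 0.16 (adjusted p = 0.02, limma). Slc12a7 encodes KCC4, which carries potassium and chloride out of the cell. It stood at -0.54 and -0.87 in WT and at 0.11 and 0.35 in IKKb(EE)IEC (mm8 chr13:74282299-74282358), a log2 fold change of 0.93 ± 0.20 (adjusted p = 0.0402, limma). For both genes the arrays separated fully by genotype.

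Slc12a2 encodes NKCC1, which loads chloride for secretion at the basolateral membrane. Its values went from 2.75 and 2.69 to 2.25 and 2.15, a log2 fold change of -0.52 ± 0.16 that did not pass (adjusted p = 0.0843, limma). Slc12a9 was dim on both WT arrays and overlapped between genotypes.

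Sodium-proton exchangers and their scaffolds were measured for 6 of 11 Slc9a names. Slc9a2 encodes NHE2, an apical exchanger. It stood at 5.91 and 5.83 in WT and at 5.23 and 5.17 in IKKb(EE)IEC (mm8 chr1:40713729-40713788), and fell by 0.67 ± 0.16 log2 units. The replicates lay within 0.1 of each other, but the adjusted p of 0.0498 (limma) is at the threshold, and under 10 of 14 alternatives the gene did not pass. A second probe, 5595 bases away, gave -0.69 and did not pass in the fit of all probes (adjusted p = 0.0602, limma).

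Slc9a3 encodes NHE3, the main sodium-absorbing exchanger of the brush border. It stood at 3.62 and 2.48 in WT and at 2.64 and 2.47 in IKKb(EE)IEC, a log2 fold change of -0.50 ± 0.38 (adjusted p = 0.371, limma). For this probe the difference was 0.07 without WT replicate 1. A second probe, 6163 bases away, stood at 0.53 and -0.06 in WT and at -0.44 and -0.31 in IKKb(EE)IEC, a log2 fold change of -0.61 with no overlap between genotypes, and did not pass in the fit of all probes (adjusted p = 0.135, limma). Of the scaffold genes, Slc9a3r2 differed by -0.74 ± 0.20 (adjusted p = 0.0643, limma) and Slc9a3r1 by 0.35 ± 0.17 (adjusted p = 0.196, limma). Neither passed.

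Anion exchangers of the Slc26a family were measured for 6 of 10 genes, and Slc26a5 alone passed. Slc26a5 encodes prestin, the motor protein of outer hair cells. It stood at -0.45 and -0.50 in WT and at -1.26 and -1.16 in IKKb(EE)IEC (mm8 chr5:21323107-21325149) and fell by 0.74 ± 0.16 log2 units (adjusted p = 0.0426, limma). Its arrays separated by genotype, and under 9 of 14 alternatives it did not pass. The values are close to the lowest signal well above background. That signal was -1.30 and -1.39 for WT replicates 1 and 2 and -1.83 and -1.99 for those of IKKb(EE)IEC. The 75th percentile subtracted was higher in IKKb(EE)IEC (94.6 and 107.8) than in WT (60.3 and 66.1). A raw signal equal on all arrays, as at background, therefore reads lower in IKKb(EE)IEC. With dim probes kept, the median over 27727 genes was -0.45, against -0.12 with the filter. In the authors' value table Slc26a5 differed by -0.20. The part of this offset in the falls of Slc26a5 and other dim genes was not tested.

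Slc26a3 encodes DRA, the chloride-bicarbonate exchanger lost in congenital chloride diarrhoea. The probe that represents it stood at 2.10 and 2.22 in WT and at 2.48 and 2.94 in IKKb(EE)IEC, a log2 fold change of 0.55 ± 0.22 (adjusted p = 0.127, limma). A second probe, 20705 bases away, went from 1.76 and 1.77 to 1.38 and 1.41 (log2 fold change -0.37; adjusted p = 0.163, limma fit of all probes). Each probe separated the genotypes, in opposite directions, and neither passed. Slc26a6, the PAT1 gene, differed by 0.07 ± 0.19, Slc26a2, a sulfate carrier gene, by -0.43 ± 0.30, and Slc26a11 by 0.43 ± 0.16, with none past the threshold. The value of Slc26a2 depended on the WT arrays, at -0.85, past the threshold, without WT replicate 1 and -0.01 without WT replicate 2.

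Of the Slc4a family 6 of 10 genes were measured and none passed in limma. Over all 12437 genes 4744 had an unadjusted p below 0.05 in limma, and in this family 1 gene did. That gene was Slc4a7, which encodes NBCn1, an electroneutral sodium-bicarbonate cotransporter. Its brightest probe stood at 3.18 and 2.24 in WT and at 4.25 and 3.71 in IKKb(EE)IEC, a log2 fold change of 1.27 ± 0.36 (adjusted p = 0.0678, limma). A probe 17566 bases away gave 0.97, whereas another, 42393 bases to the other side, gave -0.60 with WT at 2.29 and 2.24 and IKKb(EE)IEC at 1.69 and 1.65. All 3 separated the genotypes, and none passed in the fit of all probes. The brightest probe did pass with the replicate block, with the shift by the array median, with normexp on the background used by the software and without either WT replicate, where its values were 1.74 and 0.80. Slc4a2, the basolateral AE2 gene, differed by -0.08 ± 0.25. Slc4a4, the NBCe1 gene, was dim on both WT arrays, at -1.39 and -1.96, and stood at -1.18 and -1.61 in IKKb(EE)IEC, with arrays overlapping. Slc4a9 differed by -0.68 ± 0.28 (adjusted p = 0.134, limma).

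**Figure D3:**
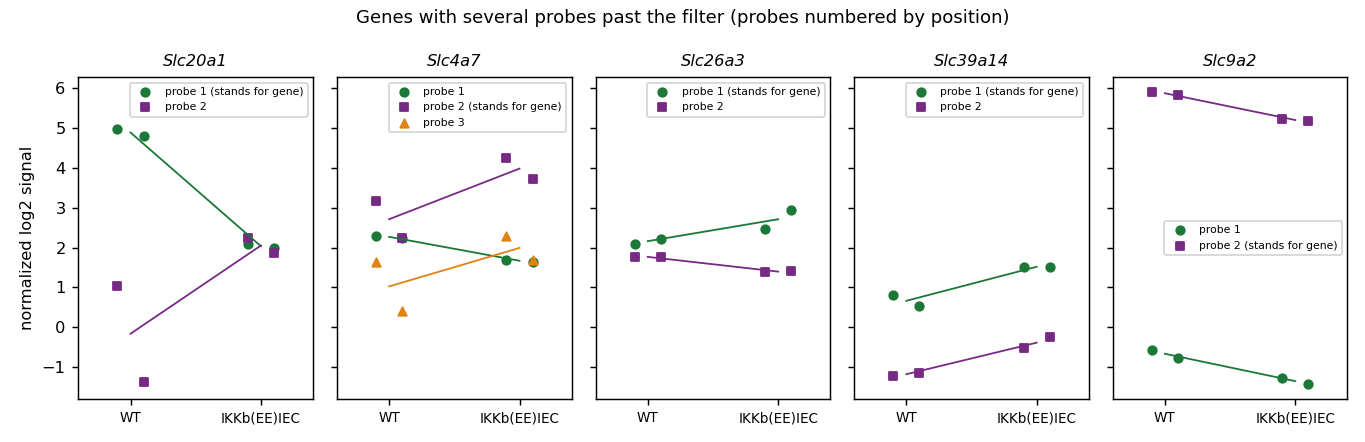
Normalized log2 signal (y axis) on the 2 WT and 2 IKKb(EE)IEC arrays for each probe past the filter in 5 genes, with lines joining the genotype means. Probes of Slc39a14 and Slc9a2 run in parallel, whereas those of Slc20a1, Slc4a7 and Slc26a3 diverge.

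Over all members, 12 genes had more than 1 probe past the filter. The sign was shared by all probes of 8 genes and differed within 4, namely Slc20a1, Slc26a3, Slc4a7 and Slc4a1ap. The other 36 genes rest on 1 probe each, and which exon a probe reads was not worked out here.

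All 3 sodium-calcium exchanger genes of the Slc8a family were measured, and none passed in limma. An unadjusted p below 0.05 was reached by 1 of them, beside 4744 of all 12437 genes (limma). Slc8a2 differed by -0.52 ± 0.18 (adjusted p = 0.0932, limma) and Slc8a1, the NCX1 gene, by -0.45 ± 0.19 (adjusted p = 0.139, limma).

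A list of 52 partner genes of epithelial ion, phosphate, calcium and zinc handling was read from the same fit. Of the 42 measured, 9 rose and 2 fell, beside 997 and 896 of all 12437 genes tested, or 8.02% and 7.2%. The median log2 fold change was 0.21, against -0.12 for all genes. The list was chosen with earlier results of these data known. The number of partner calls also moved with the array left out, as it did over all genes. The median log2 fold change of the partners was 0.32 without WT replicate 1 and 0.14 without WT replicate 2. It was 0.23 and 0.29 without IKKb(EE)IEC replicates 1 and 2.

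Guanylin and uroguanylin are hormones that drive chloride and bicarbonate secretion through the receptor guanylate cyclase C. Guca2b, which encodes uroguanylin, stood at 9.08 and 9.12 in WT and at 10.45 and 10.59 in IKKb(EE)IEC, a rise of 1.41 ± 0.17 log2 units (adjusted p = 0.00879, limma). Guca2a, which encodes guanylin, rose by 1.38 ± 0.26 (adjusted p = 0.0318, limma). Their receptor gene Gucy2c differed by 0.14 ± 0.17, and Cftr, the chloride channel at the end of that pathway, by 0.54 ± 0.26, with neither past the threshold.

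Among channels and pumps, Kcnq1, a potassium channel gene, stood at 1.90 and 1.37 in WT and at 3.08 and 3.39 in IKKb(EE)IEC and rose by 1.60 ± 0.25 log2 units. Kcnn4, the gene of a calcium-activated potassium channel, was dim in WT, with neither array well above background, and was at least 1.58-fold higher. Atp2b1, which encodes the plasma membrane calcium pump PMCA1, went from -0.40 and -0.52 to 1.15 and 1.09, a rise of 1.59 ± 0.17. The probe listed as Clca4, which RefSeq names Clca3b, rose by 1.64 ± 0.17, and the close copies in this gene family make its identity uncertain. Atp1b1, a sodium pump subunit gene, differed by 0.63 ± 0.19 and did not pass.

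Regulators of the exchangers moved in both directions. Ezr, which encodes ezrin, the link between NHERF scaffolds and actin, rose by 0.71 ± 0.17 log2 units, with an adjusted p of 0.0477 (limma). Ahcyl1, which encodes IRBIT, an activator of NBCe1 and CFTR, rose by 1.25 ± 0.27. Chp2, a calcineurin-like cofactor of sodium-proton exchangers, stood at 5.15 and 5.32 in WT and at 3.99 and 4.13 in IKKb(EE)IEC, a log2 fold change of -1.17 ± 0.17 (adjusted p = 0.0169, limma). Sgk1, a kinase that raises the activity of NHE3 and the epithelial sodium channel, stood at 4.40 and 6.09 in WT and at 1.79 and 2.95 in IKKb(EE)IEC. It fell by 2.87 ± 0.64 (adjusted p = 0.0423, limma), with replicates over 1 log2 unit apart in both genotypes and no overlap between them.

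**Figure D4:**
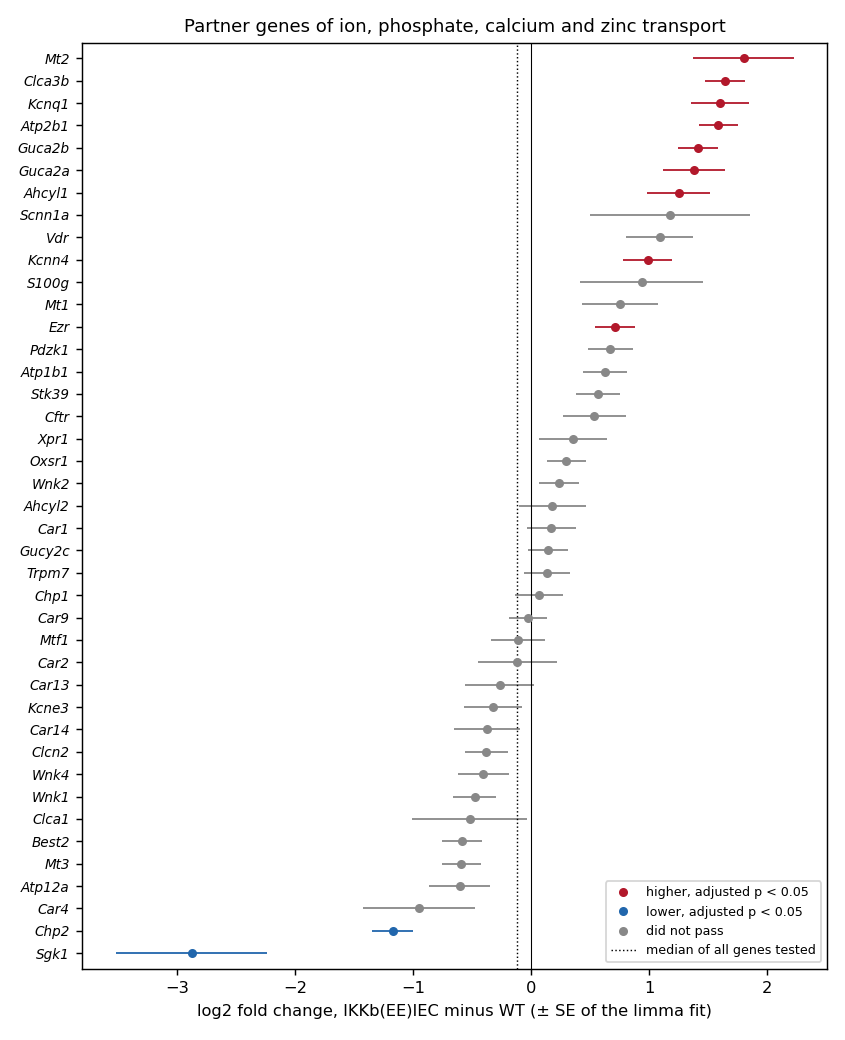
Log2 fold change (IKKb(EE)IEC minus WT, x axis) of 41 of the 42 measured partner genes in order of size, with standard errors from 2 arrays per genotype. Red points mark the 9 genes that rose and blue points the 2 that fell, and the dotted line is the median of all genes, -0.12.

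The 8 members past the threshold kept their direction under every alternative run, though many of the alternatives could not have changed it. Their arrays separate by genotype, so no run without 1 array can turn the sign. The filter, probe-level, replicate block and variance trend alternatives keep the same log2 fold changes. Only the changes of normalization or background and the authors' value table could have turned a sign. Apart from the runs that leave out 1 array, Slc30a2 and Slc20a1 failed only with the normexp correction on local background. Under that correction 0 of all 12437 genes passed in limma, members included, and 2 members had an unadjusted p below 0.05. A call lost there is therefore not particular to these genes. Without either IKKb(EE)IEC replicate, far fewer of all genes passed, and Slc12a8, Slc12a7, Slc39a14, Slc26a5 and Slc9a2 all lost the call. Their log2 fold changes without 1 array ran from 0.99 to 1.08, 0.77 to 1.09, 0.72 to 0.99, -0.79 to -0.69 and -0.71 to -0.64. Over all alternatives the lowest and highest values were 1.42 and 2.18 for Slc30a2, 0.60 and 1.09 for Slc12a8, 0.32 and 1.09 for Slc12a7, and 0.43 and 0.99 for Slc39a14. Among the genes that fell they were -2.94 and -2.40 for Slc20a1, -3.08 and -0.42 for Slc34a3, -0.79 and -0.20 for Slc26a5, and -0.71 and -0.37 for Slc9a2.

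**Figure D5:**
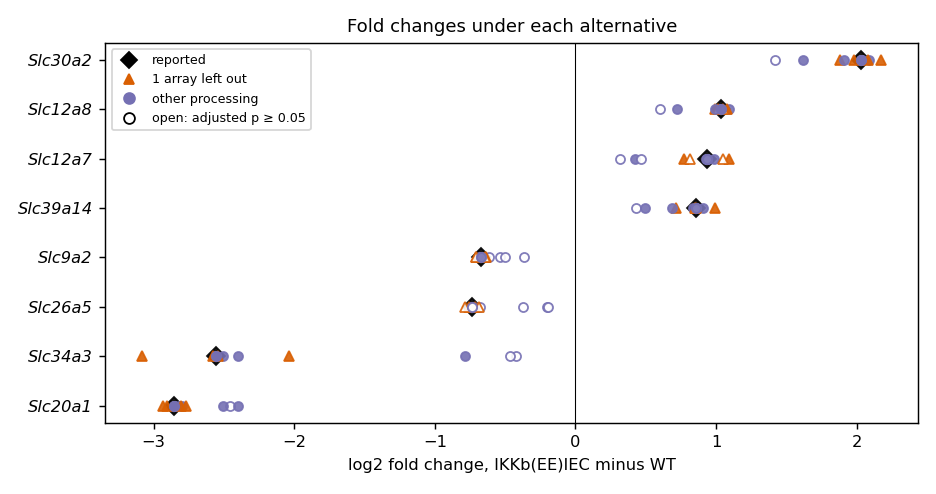
Log2 fold change (IKKb(EE)IEC minus WT, x axis) of the 8 genes past the threshold as reported (diamonds), with 1 array left out (triangles) and under other processing (circles), where open symbols mark an adjusted p of 0.05 or more. No symbol crosses 0, which the triangles could not do since the genotypes separate. The smallest values are -0.20 for Slc26a5 and 0.32 for Slc12a7.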

How the data were processed

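Total RNA (250 ng) was labelled with Cy3, per the labels' protocols, and hybridised to 1-colour Agilent arrays (design 014868), all on 1 slide, so no slide block could be fitted. The deposited intensities are processed signals of Agilent Feature Extraction 9.5.3.1, background-subtracted, per the file headers, with no normalization between arrays recorded. The deposited flags mark spots well above background, saturated or non-uniform. The authors' value table, also deposited, holds linear intensities whose columns had medians of 111.5 to 112 and followed the median spot signal; how they were normalized is not given.

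Signals were taken as log2 of the processed value minus that of the 75th percentile of the array (60.3 and 66.1 in WT, 94.6 and 107.8 in IKKb(EE)IEC). Control and non-uniform spots were left out and spots of a probe averaged. Probes well above background on at least 2 arrays entered (16406), and the probe with the highest mean stood for a gene. The test between genotypes was limma (version 3.58.1, R 4.3.3; lmFit, eBayes; two-sided, adjusted p below 0.05, Benjamini-Hochberg over 12437 genes), checked on simulated data. Names follow RefSeq (GRCm38.p6) through accessions where matched, for 24375 of 41174 probes; probe coordinates are those of the files (mm8). Arrays give no counts, so their number limits precision. A bound ("at least N-fold") sets the brighter genotype's mean against, per array of the dimmer one, the higher of the probe's value and the lowest signal well above background.

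Named are the members past the threshold, in each family the 2 others with the smallest p, members known from the intestine, and partner genes past the threshold. Further names were added where probes differed, signs turned, or a gene of the same pathway stands beside a member. The members, the partner and marker lists and the naming rule were chosen with earlier results of these data known. The promoter motifs, the sequences shown and one background correction were chosen after values were seen. A member and a partner gene enter the counts, but their values are not reported here.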

Additional observations from a re-analysis of the deposited data

How the results depend on the processing

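Of 662 values of the 48 member genes under alternatives, 27 in 14 genes had the opposite sign, none of them a gene past the threshold. With normexp on local background, Slc12a9 was 0.0116, Slc30a1 0.0612 and Slc39a8 -0.0447, and with the authors' value table, Slc12a9 was 0.0388, Slc26a4 -0.0081 and Slc39a8 -0.0016. With normexp on the background used by the software, chosen after seeing the data, Slc26a4 was -0.0209, Slc30a7 was -0.0597, Slc30a9 was -0.124, Slc39a11 was 0.0549, Slc39a9 was -0.0293, Slc4a2 was 0.0215, Slc4a4 was -0.0871. Leaving out 1 array at a time, the log2 fold change ran for Slc12a9 from -0.388 to 0.0196, Slc26a4 from -0.0924 to 0.442, Slc26a6 from -0.0884 to 0.219, Slc30a1 from -0.181 to 0.067, Slc30a7 from -0.183 to 0.325, Slc30a9 from -0.142 to 0.24, Slc39a11 from -0.51 to 0.139, Slc39a4 from -0.177 to 0.557, Slc39a8 from -0.248 to 0.662, Slc4a2 from -0.395 to 0.232, Slc4a4 from -0.0031 to 0.567, Slc8a3 from -0.564 to 0.0399, Slc9a3 from -1.07 to 0.0705.

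With normexp on local background in limma 0 members passed higher and 0 lower, as did 0 of all 12437 genes. There 0 partners passed, and 2 members and 1 partner had an unadjusted p below 0.05 in limma. With no filter on dim probes 2 members were higher and 2 lower (partners 4 and 1). That stood beside 501 and 342 of the 27727 genes that shared the adjustment. With normexp on the background used the members numbered 8 and 2 (partners 13 and 1), beside 1445 and 580 of all genes. The lower members numbered 2 with the median shift and 1 in the authors' value table, beside 735 of 12437 and 721 of 12341 genes. Without 1 array, higher members ranged from 1 to 10, lower members from 2 to 16, higher partners from 0 to 18 and lower partners from 0 to 9. Same-numbered samples share a number only (correlation of deviations 0.11 over 2 pairs). With the replicate block 3 members were higher, namely Slc30a2, Slc12a8 and Slc4a7, and 2 lower, and 9 and 2 partners. Slc4a7 gained the call there while Slc12a7 and Slc39a14 lost it. Of all 12437 genes 913 were higher and 587 lower with that block. The cause of these changes was not tested. The median of all genes moved from -0.12 to -0.01 with normexp on the background used. Dim members are limited by signal over background: 7 were not well above it on either WT array and 1 on neither IKKb(EE)IEC array.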
